A study of Mus musculus with 9 samples.

Results

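The genes examined here encode the proteins of the cytosolic ribosome in mouse oocytes. They were chosen by symbol: every gene named Rpl or Rps followed by a number, with the stalk proteins Rplp0, Rplp1 and Rplp2 and the small subunit protein Rpsa, where a probe set of the array named that gene and no other. The rule gave 55 genes of the 19938 genes on the array, 33 of the large subunit and 22 of the small subunit. RefSeq holds 81 symbols that fit the rule, so neither subunit need be complete here. Of the rest, 17 appear only on probe sets that name several genes and 9 on neither kind. Another 16 genes with similar symbols were left out: 6 ribosomal S6 kinases, 2 pseudogenes, 6 related genes such as Rpl10l and Rpl39l, and Rps19bp1 and Rps23rg1, which are only named after a ribosomal protein. Of the 55 genes, 54 (32 large, 22 small) passed the minimum signal and were tested. Rpl12 did not, with log2 signals between 3.24 and 3.82 on the 9 arrays.

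The ribosome is built of a small subunit, which holds the mRNA and decodes it, and a large subunit, which joins amino acids and carries the stalk that recruits translation factors. Its proteins are made in matching amounts, and in most vertebrate cells their mRNAs begin with a run of pyrimidines, the terminal oligopyrimidine motif, through which growth signals switch their translation on and off. A fully grown oocyte no longer makes much new RNA, so at metaphase of the second meiotic division (MII) it lives on stored mRNA, including stored ribosomal protein mRNA that is gradually lost during maturation. Dgcr8 is needed to make canonical microRNAs, whereas Dicer is needed for microRNAs and for endogenous small interfering RNAs.

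The study compared wild-type MII oocytes with oocytes labelled as knockouts of Dgcr8 or of Dicer. All were of strain C57BL/6, with 3 biological replicates of each genotype on 9 Affymetrix arrays. Females of every group received 7.5 IU of pregnant mare serum gonadotropin (PMSG) and 7.5 IU of human chorionic gonadotropin (hCG). Oocytes were taken from the oviduct 14 to 16 h after hCG, freed of cumulus cells with 0.3 mg/ml hyaluronidase, and extracted as total RNA. The sources used here do not give how the knockouts were made, the age of the females or the number of oocytes and females behind each array.

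Each targeted gene was lower in its own knockout. Dgcr8 signal (log2, mean ± SD) was 8.96 ± 0.10 (n = 3) in wild-type and 5.71 ± 0.26 (n = 3) in Dgcr8 knockout oocytes (adjusted p 1.06e-05). Dicer1 signal was 11.67 ± 0.0061 (n = 3) in wild-type and 10.72 ± 0.13 (n = 3) in Dicer knockout oocytes (adjusted p 1.01e-05). Dgcr8 was also lower in Dicer knockout oocytes, by -0.50, without a call (adjusted p 0.0644). Its signals there, 8.28 to 8.72, lay below those in wild-type, 8.85 to 9.05. Dicer1 differed by 0.0093 in Dgcr8 knockout oocytes. The 20 oocyte markers measured had array means of 10.88 to 11.11, with Zp2 (0.40), Nobox (0.24) and Ddx4 (0.62) called higher and Kit (-0.36) called lower in Dicer knockout against wild-type oocytes. The 27 cumulus and granulosa markers on the array had array means of 5.16 to 5.23 over all 9 arrays. Of these, 25 were tested, with Gata4 (0.59) called higher in Dicer knockout oocytes, and Tnfaip6 and Hsd3b1 were below the minimum signal. The 13 immune and blood markers on the array had array means of 5.08 to 5.17 in wild-type and 5.16 to 5.50 in Dicer knockout oocytes. Of these, 12 were tested, and the macrophage marker Adgre1 was below the minimum signal. Cd68 (0.96) and Itgb2 (0.89) were called higher and none lower. Lyz2 was not called, with an SD of 1.35 in Dicer knockout and 0.15 in wild-type oocytes. Of 16 oviduct markers, Myh11 (-0.46) was called lower and none higher. In Dicer knockout against wild-type oocytes, 4.87% of all tested genes were called higher and 6.47% lower. Median differences were 0.05 for oocyte, -0.05 for cumulus and granulosa, 0.04 for immune and blood and -0.07 for oviduct markers. The median over all genes was -0.03. The part of these markers in the results on ribosomal protein genes was not tested.

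Runs of pyrimidines can be read in the sequences around the annotated starts of these genes. The windows of 30 bases below come from RefSeq (GRCm38.p6) and are shown to set some genes called higher in Dicer knockout oocytes beside some that were not called. They are written 5′ to 3′ on the gene's strand. Capitals mark the longest run of C and T that opens with C and lies within 50 bases of the start. The first 6 belong to genes that were higher in Dicer knockout oocytes.
Rpl27a, chr7:109519186-109519215, plus strand: gtgagCTCCTCCCTTTTCCCTTTCTgccac
Rpl34, chr3:130730330-130730359, minus strand: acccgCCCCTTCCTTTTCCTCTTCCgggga
Rpl38, chr11:114668569-114668598, plus strand: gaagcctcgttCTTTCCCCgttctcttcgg
Rplp2, chr7:141447636-141447665, plus strand: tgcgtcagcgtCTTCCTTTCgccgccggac
Rps6, chr4:86857349-86857378, minus strand: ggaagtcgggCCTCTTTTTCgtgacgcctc
Rps28, chr17:33824581-33824610, minus strand: acgctggtgacgaCTCTgtcccgaggattc
The next 4 belong to genes that were not called in any of the 3 comparisons.
Rpl4, chr9:64173405-64173434, plus strand: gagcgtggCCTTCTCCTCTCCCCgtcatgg
Rpl6, chr5:121204521-121204550, plus strand: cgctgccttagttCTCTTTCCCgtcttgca
Rpl7a, chr2:26910789-26910818, plus strand: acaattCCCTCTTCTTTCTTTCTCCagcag
Rpl28, chr7:4792953-4792982, plus strand: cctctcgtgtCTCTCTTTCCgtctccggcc
In the windows printed, the run was 20 bases long in Rpl27a and Rpl34, 19 in Rpl7a, 15 in Rpl4 and 4 in Rps28. Long runs thus occurred on both sides of the call, and the shortest of the 10 belonged to a called gene. Rpl34 has another annotated start, whose run was 8 bases long. These genes were chosen for display after their values were seen.

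In Dicer knockout oocytes, ribosomal protein genes were mostly higher than in wild-type oocytes, by very unequal amounts. Of 54 genes, 14 were called higher (25.9%; adjusted p under 0.05) and none lower, against 4.87% of all 17324 genes called higher and 6.47% called lower. The median difference was 0.42 on the log2 scale (quartiles 0.16 and 0.80, range -0.30 to 2.04), against -0.03 over all genes, and 50 of 54 members lay above 0, against 42.1% of all genes. The count was 8 without Dicer knockout replicate 1 and 9 without wild-type replicate 2. Calls were also more frequent among strongly detected genes, 7.48% called higher at a mean log2 signal of at least 8, and the members had a median wild-type signal of 9.23 against 6.40 for all genes. In such bulk samples a change in every oocyte and a change in some of them, or fewer cells of a type and less RNA per cell, cannot be told apart.

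**Figure D1:**
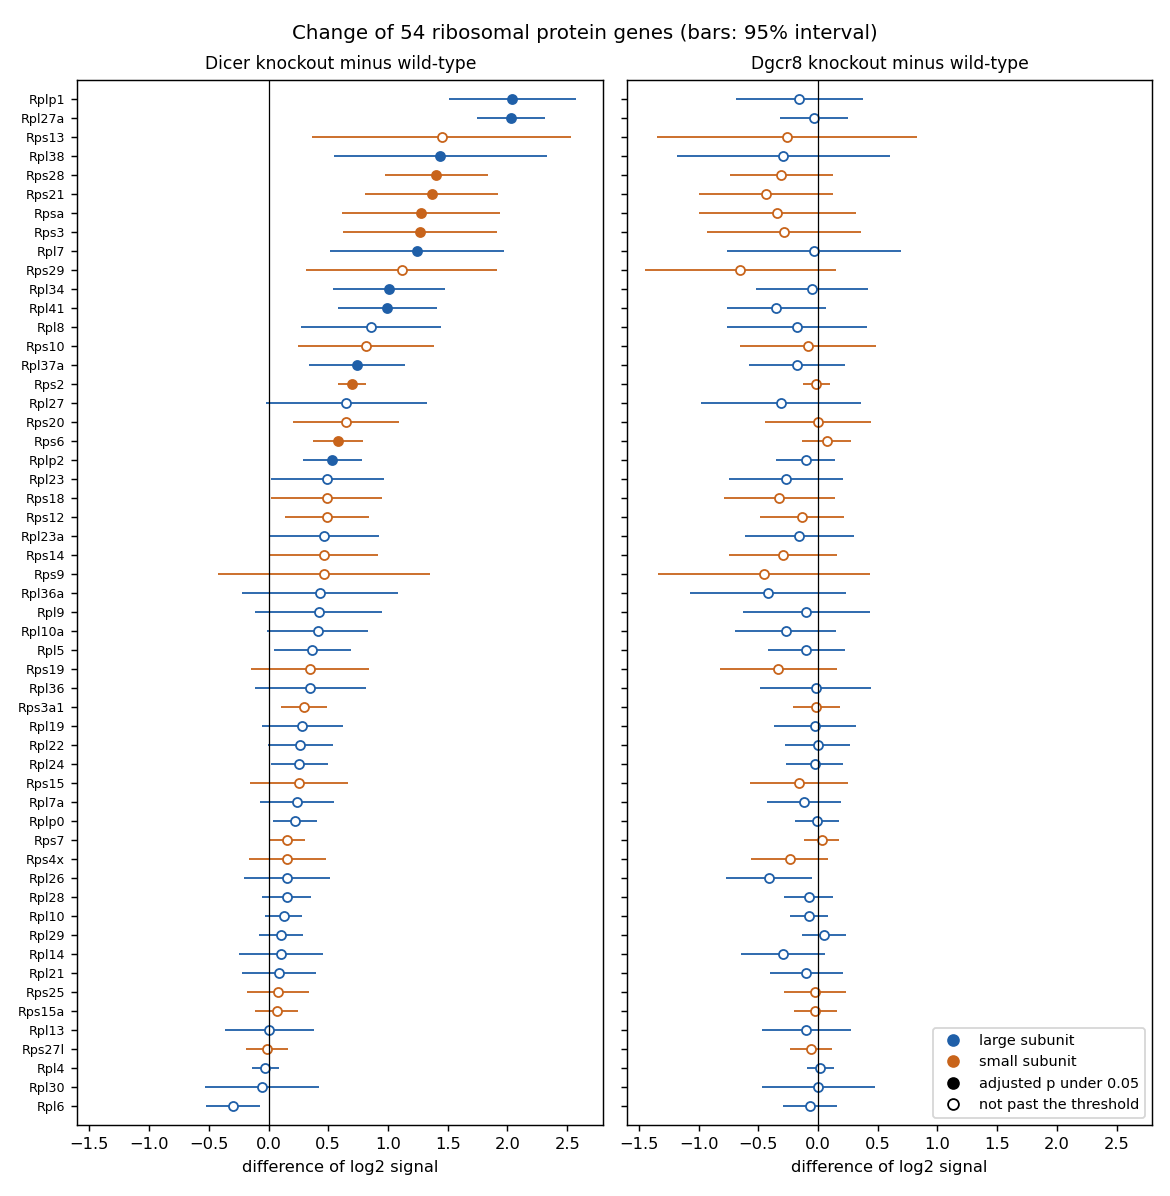
Difference of log2 signal for each of the 54 tested genes, Dicer knockout minus wild-type on the left and Dgcr8 knockout minus wild-type on the right, with 95% intervals from limma; blue is the large and orange the small subunit, and filled points passed an adjusted p of 0.05. On the left, 50 of 54 points lie above 0 and 14 are filled; on the right, 49 lie below 0 and none is filled.

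The stalk of the large subunit, which recruits and activates the translation factors that use GTP, was represented by all 3 of its proteins. Rplp1 had log2 signals of 9.93, 9.75 and 8.93 in wild-type, 9.01, 9.56 and 9.57 in Dgcr8 knockout and 11.64, 11.68 and 11.40 in Dicer knockout oocytes. Every Dicer knockout array lay more than 1 log2 unit above the other 6. Rplp1 rose by 2.04 ± 0.24 (SE; 4.11-fold, adjusted p 0.000483).
Rplp2, which pairs with Rplp1, had signals of 6.01, 6.32 and 6.20 in wild-type, 5.97, 6.21 and 6.03 in Dgcr8 knockout and 6.67, 6.84 and 6.62 in Dicer knockout oocytes. The Dicer knockout arrays lay above all others, and Rplp2 rose by 0.53 ± 0.11 (SE; 1.45-fold, adjusted p 0.0114).
Rplp0, the protein that anchors both pairs to the ribosome, had signals of 10.00, 9.90 and 10.25 in wild-type and 10.25, 10.28 and 10.28 in Dicer knockout oocytes. Its difference of 0.22 ± 0.08 (SE; adjusted p 0.136) did not pass the threshold, although it did without wild-type replicate 3 (adjusted p 0.0217). The 95% intervals were 1.51 to 2.57 for Rplp1, 0.29 to 0.78 for Rplp2 and 0.03 to 0.41 for Rplp0, so the interval of Rplp1 did not overlap those of its partners.

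Beyond the stalk, 6 large subunit genes were called higher. Rpl27a, a structural protein of the large subunit whose run of 20 pyrimidines is printed above, had signals of 9.46, 9.25 and 9.18 in wild-type, 9.18, 9.15 and 9.46 in Dgcr8 knockout and 11.46, 11.06 and 11.47 in Dicer knockout oocytes. Replicates lay close together in each group, and the Dicer knockout arrays stood clear of all others. Rpl27a rose by 2.03 ± 0.13 (SE; 4.08-fold, adjusted p 9.36e-06).
Rpl41, the shortest ribosomal protein, which lies at the contact between the subunits, had signals of 10.89, 10.80 and 10.39 in wild-type, 9.94, 10.34 and 10.76 in Dgcr8 knockout and 11.75, 11.74 and 11.59 in Dicer knockout oocytes. The Dicer knockout arrays were again above all others, and Rpl41 rose by 0.99 ± 0.19 (SE; 1.99-fold, adjusted p 0.00686).
Rpl34, another protein of the large subunit, had signals of 7.91, 7.97 and 7.35 in wild-type, 7.46, 7.69 and 7.94 in Dgcr8 knockout and 8.89, 9.01 and 8.36 in Dicer knockout oocytes. It rose by 1.01 ± 0.21 (SE; 2.01-fold, adjusted p 0.0120), with its Dicer knockout arrays above all others, and missed the threshold without Dicer knockout replicate 1 (adjusted p 0.0518).

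The other 3 called large subunit genes rested on wider replicates. Rpl38, known from mouse mutants with altered skeletal patterning, had signals of 8.84, 8.61 and 7.95 in wild-type, 7.76, 8.11 and 8.67 in Dgcr8 knockout and 10.69, 10.04 and 8.99 in Dicer knockout oocytes. The lowest Dicer knockout array was only slightly above the highest wild-type array. Rpl38 rose by 1.44 ± 0.40 (SE; adjusted p 0.0453), and the call was lost in 14 of 19 alternative analyses, including those without any 1 of the wild-type or Dgcr8 knockout replicates and those without Dicer knockout replicate 1 or 2 (adjusted p up to 0.164).
Rpl7, a large subunit protein that also binds RNA by itself, had signals of 7.78, 7.01 and 6.77 in wild-type, 7.02, 7.08 and 7.35 in Dgcr8 knockout and 8.97, 8.64 and 7.68 in Dicer knockout oocytes. Here the groups overlapped, since Dicer knockout replicate 3 lay below wild-type replicate 1. Rpl7 rose by 1.24 ± 0.33 (SE; adjusted p 0.0358), a call lost without wild-type replicate 2 or 3, without any 1 of the Dgcr8 knockout replicates, without Dicer knockout replicate 1 or 2, and with only those 2 groups in the fit or the arrays centred on their medians (adjusted p up to 0.137).
Rpl37a, a zinc-binding protein, had signals of 9.05, 8.85 and 8.41 in wild-type, 8.52, 8.66 and 8.60 in Dgcr8 knockout and 9.80, 9.57 and 9.16 in Dicer knockout oocytes. It rose by 0.74 ± 0.18 (SE; adjusted p 0.0250), a call lost without wild-type replicate 2 or 3, without Dicer knockout replicate 1 or 2 and with only those 2 groups in the fit (adjusted p up to 0.0914).

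In the small subunit, 6 genes were called higher. Rps28, which sits where mRNA leaves the ribosome, had signals of 10.18, 10.22 and 9.43 in wild-type, 9.41, 9.58 and 9.91 in Dgcr8 knockout and 11.36, 11.33 and 11.34 in Dicer knockout oocytes. The Dicer knockout arrays were nearly identical (SD 0.015) and above all others. Rps28 rose by 1.40 ± 0.19 (SE; 2.65-fold, adjusted p 0.00128).
Rps2, which lines the channel where mRNA enters, had signals of 10.90, 10.91 and 10.72 in wild-type, 10.83, 10.82 and 10.85 in Dgcr8 knockout and 11.53, 11.56 and 11.53 in Dicer knockout oocytes. Its change was smaller but its replicates were tight (SD 0.013 in Dicer knockout oocytes), and Rps2 rose by 0.70 ± 0.05 (SE; 1.62-fold, adjusted p 2.33e-05).
Rps6, the ribosomal protein phosphorylated by S6 kinases, had signals of 10.72, 10.55 and 10.43 in wild-type, 10.57, 10.63 and 10.72 in Dgcr8 knockout and 11.34, 11.06 and 11.05 in Dicer knockout oocytes. It rose by 0.58 ± 0.09 (SE; adjusted p 0.00288), with its Dicer knockout arrays above all others.
Rps21, a protein of the small subunit, had signals of 9.05, 8.67 and 8.37 in wild-type, 7.94, 8.06 and 8.78 in Dgcr8 knockout and 10.29, 10.23 and 9.67 in Dicer knockout oocytes. It rose by 1.36 ± 0.25 (SE; 2.57-fold, adjusted p 0.00623), and its Dicer knockout arrays were all above the others.

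The remaining small subunit calls were those of Rpsa and Rps3. Rpsa, also known as the laminin receptor, had signals of 8.58, 8.11 and 8.08 in wild-type, 7.89, 8.11 and 7.75 in Dgcr8 knockout and 9.79, 10.08 and 8.73 in Dicer knockout oocytes. Its Dicer knockout replicate 3 was the lowest of that group but still above the wild-type arrays. Rpsa rose by 1.27 ± 0.30 (SE; 2.42-fold, adjusted p 0.0204), and missed the threshold without wild-type replicate 2 or 3, without Dicer knockout replicate 1 or 2 and with only those 2 groups in the fit (adjusted p up to 0.0822).
Rps3, a protein of the mRNA entry site that also has roles in DNA repair, had signals of 6.68, 5.77 and 5.86 in wild-type, 5.48, 5.75 and 6.22 in Dgcr8 knockout and 7.68, 7.55 and 6.87 in Dicer knockout oocytes. It rose by 1.27 ± 0.29 (SE; 2.40-fold, adjusted p 0.0190), a call lost without the same 4 replicates (adjusted p up to 0.0804).
Of the 14 called genes, 8 passed under all 19 alternatives run: Rpl27a, Rplp1, Rplp2, Rpl41, Rps2, Rps6, Rps21 and Rps28.

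**Figure D2:**
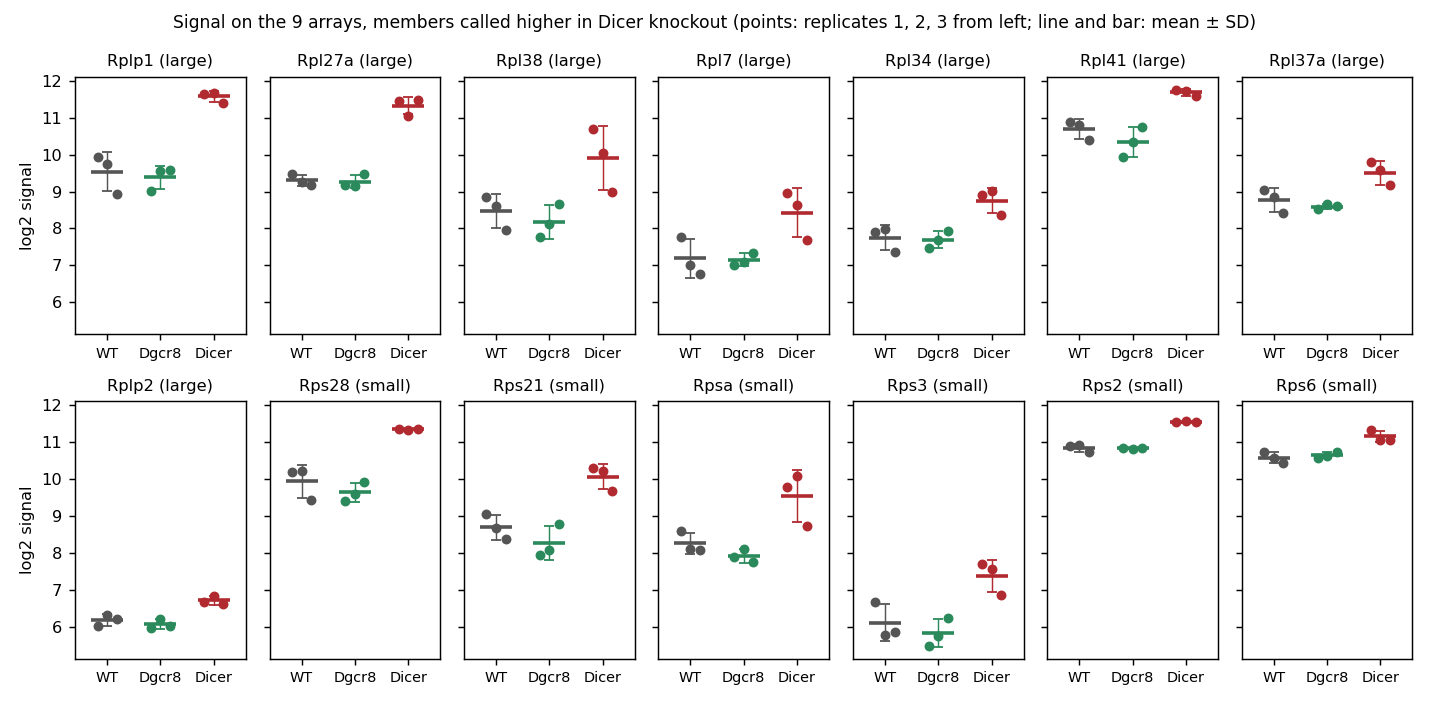
Log2 signal of the 14 genes called higher in Dicer knockout against wild-type oocytes, with a point for each array (replicates 1 to 3 from left), a line at the mean and bars of 1 SD, n = 3 per genotype. In 13 of the 14 panels, all but that of Rpl7, every Dicer knockout point lies above every wild-type point.

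A further 40 members did not pass the threshold, some of them with differences as large as those of called genes. Rps13, a small subunit protein, had signals of 7.90, 7.25 and 6.58 in wild-type, 7.04, 6.81 and 7.12 in Dgcr8 knockout and 9.90, 8.51 and 7.67 in Dicer knockout oocytes. The spread of the Dicer knockout arrays (SD 1.13) was the widest of any member, and the difference of 1.45 ± 0.49 (SE) had an adjusted p of 0.0923.
Rps29, a zinc-binding small subunit protein mutated in some families with Diamond-Blackfan anaemia, had signals of 10.12, 9.85 and 8.92 in wild-type, 8.57, 8.85 and 9.53 in Dgcr8 knockout and 11.24, 10.84 and 10.16 in Dicer knockout oocytes. Its difference was 1.11 ± 0.36 (SE; adjusted p 0.0791). Both genes passed without Dicer knockout replicate 3, with adjusted p of 0.0226 for Rps13 and 0.0420 for Rps29. Rps13 also passed with the replicate number as a block (0.0350) and Rps29 with a minimum signal of 6 (0.0484).
Rpl8, a protein close to the peptidyl transferase centre, differed by 0.85 (adjusted p 0.0681) and Rps10, which is near the mRNA entry site, by 0.82 (adjusted p 0.0713). Without Dicer knockout replicate 3 the adjusted p was 0.00658 for Rpl8 and 0.00145 for Rps10. Both also passed with a minimum signal of 6, at 0.0417 for Rpl8 and 0.0438 for Rps10. Rpl8 passed without wild-type replicate 1 too (0.0469).

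At the other end, several genes lay near 0 with narrow intervals. Rpl4, a large subunit protein that lines the exit tunnel, had signals of 11.64, 11.65 and 11.65 in wild-type, 11.63, 11.66 and 11.71 in Dgcr8 knockout and 11.74, 11.52 and 11.60 in Dicer knockout oocytes. All groups overlapped, and the 95% interval of the Dicer knockout difference ran from -0.14 to 0.09. Rps27l, a relative of Rps27 that p53 induces, had signals of 10.25, 10.21 and 10.38 in wild-type and 10.16, 10.24 and 10.41 in Dicer knockout oocytes, with an interval of -0.19 to 0.17.
Rpl10, which is among the last proteins to join the large subunit, differed by 0.13 (95% interval -0.03 to 0.28). For these 3 genes the intervals exclude a rise as large as the 0.53 of Rplp2, the smallest among the called genes. Rpl22, whose loss impairs T cell development, differed by 0.26 (95% interval -0.01 to 0.54). Its paralogue Rpl22l1, like Rps27, was named by no probe set alone. Rpl9 and Rpl30 had the lowest wild-type signals of the tested members (5.79 and 5.86), and their intervals were wide. Rpl30 differed by -0.05 (95% interval -0.53 to 0.42) and Rpl9 by 0.42 (95% interval -0.11 to 0.95).
Rpl6, a large subunit protein, had the lowest difference of any member, with signals of 9.07, 8.99 and 9.11 in wild-type, 8.89, 8.99 and 9.09 in Dgcr8 knockout and 8.92, 8.80 and 8.54 in Dicer knockout oocytes. Its Dicer knockout arrays all lay below the wild-type arrays, with a difference of -0.30 ± 0.10 (SE; adjusted p 0.0947). After quantile normalization of the arrays Rpl6 passed the threshold as lower (adjusted p 0.0306), the only setting in which it did.

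Before any adjustment, 29 of 54 genes had a p under 0.05 in the direction of higher signal (53.7%) and Rpl6 alone in the direction of lower signal, against 9.4% and 14.3% of all genes. In 18 of 54 members (33.3%) every Dicer knockout array was above every wild-type array, against 10.0% of all genes. These were 13 of the called genes with Rpl23a (0.47), Rplp0, Rps3a1 (0.30), Rps20 (0.65) and Rps29. In 1 member, Rpl6, every array was below, against 16.1%. A change of at least 2-fold with a call was found for 9 members (16.7%), against 1.56% of all genes.

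The ribosomal protein genes of an array tended to be high or low together, within the wild-type group as well. Wild-type replicate 1 had the highest of the 3 wild-type signals for 41 of 54 members (75.9%), against 33.6% of all genes, and wild-type replicate 3 the lowest for 37 (68.5%), against 25.7%. In Dgcr8 knockout oocytes replicate 3 was the highest for 36 members (66.7%; 30.6% of all genes) and replicate 1 the lowest for 32 (59.3%; 31.2% of all genes). Among the Dicer knockout arrays replicate 1 was the highest for 39 members (72.2%; 32.0% of all genes) and replicate 3 the lowest for 41 (75.9%; 26.9% of all genes).
Expressed as the median deviation of the 54 genes from their wild-type means, the wild-type arrays lay at 0.17, 0.0050 and -0.16. The Dgcr8 knockout arrays lay at -0.26, -0.15 and -0.00057, and the Dicer knockout arrays at 0.79, 0.32 and 0.12. Dicer knockout replicate 3 was thus lower than wild-type replicate 1 by this measure, and only the other 2 Dicer knockout arrays stood above all wild-type arrays. The medians of all genes stayed between -0.04 and 0.01 on the 9 arrays.
The 14 called genes had median deviations of 1.48, 1.42 and 0.65 on the Dicer knockout arrays, a description of values that were used to call them. The 40 other genes had 0.56, 0.22 and 0.03. Replicate spread was wider for these genes than for genes in general: the median SD was 0.20 in wild-type (0.084 for all genes), 0.15 in Dgcr8 knockout (0.11) and 0.32 in Dicer knockout oocytes (0.12).

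**Figure D3:**
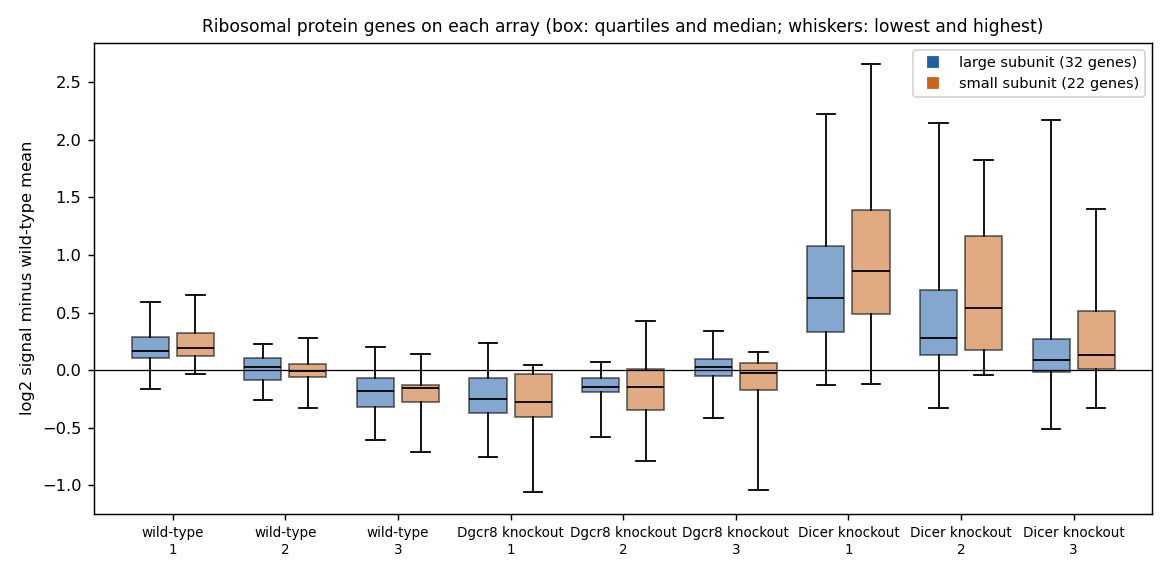
Deviation of each gene's log2 signal from its wild-type mean on each of the 9 arrays, for 32 large subunit genes (blue) and 22 small subunit genes (orange); boxes show quartiles and median, whiskers the lowest and highest gene. The boxes of Dicer knockout replicates 1 and 2 lie mostly above 0, with medians over both subunits of 0.79 and 0.32, while those of Dicer knockout replicate 3 reach down to the wild-type arrays.

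Both subunits had medians above 0 in Dicer knockout oocytes, and that of the small subunit was the higher. Of large subunit genes 8 of 32 were called higher (25.0%) and of small subunit genes 6 of 22 (27.3%). The median difference was 0.36 for the large subunit (quartiles 0.14 and 0.67) and 0.49 for the small subunit (quartiles 0.27 and 1.04), a gap of -0.13 (-0.21 when probe sets were averaged per gene and -0.25 with the lowest probe set). Changes of 1 or more on the log2 scale were measured for 5 large and 6 small subunit genes, and both subunits had genes near 0. By array, the median of the large subunit minus that of the small was -0.24, -0.26 and -0.04 in Dicer knockout, 0.02, 0.0030 and 0.05 in Dgcr8 knockout and -0.02, 0.03 and -0.02 in wild-type oocytes. The gap was thus wide on 2 of the 3 Dicer knockout arrays and close to the wild-type values on the other. No test was made of the difference between subunits, since their genes are not replicates.

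In Dgcr8 knockout oocytes no ribosomal protein gene was called in either direction, on a background of 0.0231% of all genes called (4 genes by limma). At an unadjusted p under 0.05 there was 1 lower gene, Rpl26 (1.85% of members, 1.25% of all genes), and none higher. Most differences were nevertheless in the same direction, with 49 of 54 genes below 0, a median of -0.10 (range -0.65 to 0.07), against 48.7% of all genes above 0 and a median of -0.0029. The median was -0.035 without wild-type replicate 1 and -0.24 without wild-type replicate 3, the arrays at either end of the wild-type order described above.
Rpl26, a large subunit protein that also binds the p53 mRNA, had signals of 7.89, 7.72 and 7.72 in wild-type, 7.21, 7.49 and 7.41 in Dgcr8 knockout and 8.32, 7.86 and 7.62 in Dicer knockout oocytes. Its Dgcr8 knockout arrays lay below all wild-type arrays, with a difference of -0.41 ± 0.16 (SE; unadjusted p 0.0308, adjusted p 1.0). Rpl14, Rps18 and Rps19 were the other members without overlap, also lower, which makes 4 of 54 (7.41%) against 3.02% of all genes. Rps29 had the lowest difference, -0.65, followed by Rps9 (-0.45), Rps21 (-0.44) and Rpl36a (-0.42), all with overlapping groups.
Some of the genes called in Dicer knockout oocytes can be set beside these values. Rpl27a differed by -0.04 (95% interval -0.32 to 0.25), Rplp1 by -0.16 (-0.69 to 0.38), Rps28 by -0.31 (-0.74 to 0.12) and Rps2 by -0.01 (-0.13 to 0.10). The upper bound for each lies below the lower bound of its Dicer knockout interval, and both comparisons share the 3 wild-type arrays. These genes were picked from those called higher in Dicer knockout oocytes, so such a gap was largely fixed in advance. For 2 other called genes the intervals overlapped. The Dgcr8 knockout upper bound was 0.60 for Rpl38 and 0.69 for Rpl7, and the Dicer knockout lower bound was 0.55 and 0.52. The medians were -0.10 for the large subunit and -0.20 for the small subunit.

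The direct comparison of Dicer knockout with Dgcr8 knockout oocytes, which does not use the wild-type arrays for its means, gave more calls. Of 54 genes 25 were called higher (46.3%) and none lower, against 5.48% and 7.92% of all genes. The median difference was 0.62, with -0.02 for all genes, and all Dicer knockout arrays lay above all Dgcr8 knockout arrays for 36 genes (66.7%), against 10.2% of all genes. The count fell to 13 without Dgcr8 knockout replicate 1 or without Dicer knockout replicate 1, to 14 and 15 without Dgcr8 knockout replicates 2 and 3, and to 16 without Dicer knockout replicate 2 or with each array centred on its median. This comparison shares the Dicer knockout arrays with the one against wild-type, so its calls are not separate evidence.
All 14 genes called against wild-type were called here too. Rpl27a was higher by 2.06 (adjusted p 8.19e-06), Rplp1 by 2.19 (adjusted p 0.000295), Rps21 by 1.80 (adjusted p 0.00123), Rps28 by 1.71 (adjusted p 0.000362) and Rpl41 by 1.34 (adjusted p 0.00121). The other 11 were Rps13 (1.70), Rps29 (1.76), Rpl8 (1.03), Rps10 (0.90), Rps18 (0.81), Rpl23 (0.76), Rps14 (0.76), Rpl10a (0.68), Rps12 (0.62), Rpl26 (0.56) and Rps3a1 (0.31), with adjusted p between 0.00965 and 0.0474. Rps14 is a gene deleted in a form of myelodysplastic syndrome, and Rps18 is part of the head of the small subunit.
Of the 11, Rps29 alone kept its call under all 19 alternatives.
Rps18, for example, had signals of 8.93, 8.72 and 8.63 in wild-type, 8.44, 8.28 and 8.58 in Dgcr8 knockout and 9.70, 9.33 and 8.72 in Dicer knockout oocytes. It lay lowest in Dgcr8 knockout, between in wild-type and highest in Dicer knockout oocytes, with overlap only between the latter 2 groups. Rps12, another small subunit protein, had signals of 10.65, 10.51 and 10.23 in wild-type, 10.21, 10.33 and 10.45 in Dgcr8 knockout and 11.28, 10.98 and 10.60 in Dicer knockout oocytes, and so followed the same order of means. By subunit, 12 of 32 large (37.5%) and 13 of 22 small subunit genes (59.1%) were called, with medians of 0.49 and 0.70.

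Most members were measured by more than 1 probe set, so the changes of a gene's probe sets can be set side by side. Of the tested genes 38 had several probe sets and 16 had 1. Among the 38, the median distance between the lowest and the highest change of a gene's probe sets was 0.14, and in all but Rpl13, 37 genes, the changes had the same sign. Rpl27a had the widest distance, 1.45 to 2.10 over 9 probe sets, all called higher. All 7 probe sets of Rps28, all 8 of Rps6, all 5 of Rpsa and both of Rplp1 were called as well, whereas 3 of 4 were called for Rpl38 and for Rpl7. Rpl34, Rpl37a, Rplp2 and Rps3 had only 1 probe set each. At the low end, the 3 probe sets of Rpl6 lay between -0.31 and -0.26, the 6 of Rpl10 between 0.13 and 0.16 and the 9 of Rpl13 between -0.06 and 0.09. The choice of probe set changed some calls: Rpl23 differed by 0.49 with the probe set used and by 0.93 with the other, which was called. Rpl38 missed the threshold with the probe set highest in wild-type (adjusted p 0.0508). Against Dgcr8 knockout oocytes, Rps13 (0.0501) and Rps18 (0.0663) missed it with the lowest probe set. Over all member probe sets 50 of 209 were called higher (23.9%), against 5.15% of all probe sets tested. The probe sets of a gene share its RNA, and 19 had values identical to another, including all 3 of Rpl41 and 8 of Rps12. They are therefore not replicates, and part of their agreement was fixed in advance.

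**Figure D4:**
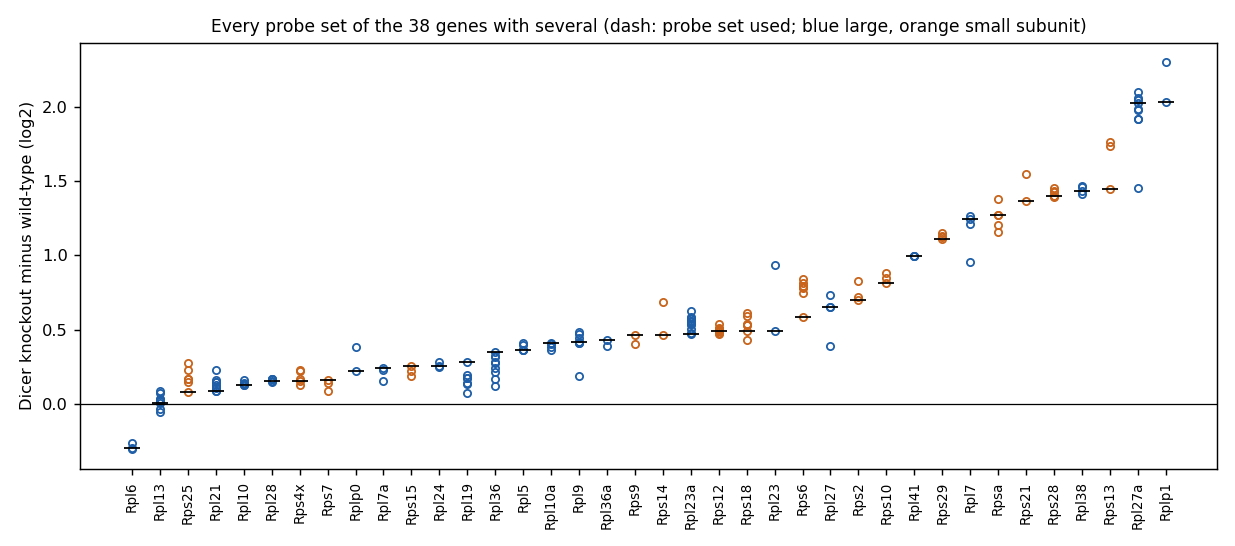
Dicer knockout minus wild-type difference (log2) for every probe set of the 38 genes with several, ordered by the probe set used (dash); blue is the large and orange the small subunit. Probe sets of a gene lie within 0.14 of each other at the median, and the 9 of Rpl27a span 1.45 to 2.10.

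Ribosomal protein genes have many processed copies in the mouse genome, and short probes cannot always tell a gene from its copies. A further 237 probe sets list a ribosomal protein symbol together with other genes, and 17 ribosomal protein symbols appear only on such probe sets. Of these 235 passed the minimum signal. Their Dicer knockout differences had a median of 0.23 (range -0.0060 to 2.04), with 22 above 1 and 1 below 0. Their Dgcr8 knockout differences had a median of -0.10 (range -0.90 to 0.34). They are named here for no gene, and both medians lie on the same side of 0 as those of the 54 members. Among the genes left out, the pseudogene Rps19-ps3 was higher in Dicer knockout oocytes by 1.72 ± 0.19 (SE; adjusted p 0.000397), whereas Rps19 itself differed by 0.35 (adjusted p 0.406). Which copy the Rps19-ps3 probe set measured was not tested. Rpl32l was also called higher, by 0.78 (adjusted p 0.00462). Rps19bp1 and Rps23rg1 had differences of 0.01 and 0.11, and neither was called.

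Pyrimidine runs near the annotated start were common among these genes, called or not. RefSeq promoter windows (GRCm38.p6) were at hand for 44 of the 55 genes. Where a gene had several annotated starts, all of them were searched. A run of at least 8 C or T that opens with C, within 50 bases of the annotated start on the gene's strand, was found in 35 of 44 (79.5%), against 32.0% of 27025 genes. It was found in 22 of 25 large (88.0%) and 13 of 19 small subunit genes (68.4%), in 9 of 12 called genes (75.0%) and in 25 of 31 tested genes that were not called (80.6%). Of the windows printed above, the run of Rpl27a opened 4 bases before the annotated start and that of Rps6 at 1 base before it, while that of Rpl6 opened 34 bases after it. Annotated starts can lie some way from the start that oocytes use. A run counted here is therefore not in itself the motif that opens an mRNA.
CGGAAG, the core letters bound by many Ets family factors, was searched on both strands of the 300 bases from 250 before to 50 after the start, where its reverse complement can overlap a pyrimidine run. It occurred in 32 of 44 members (72.7%), against 18.8% of all genes and 27.4% of tested genes, and in 12 of 12 called and 19 of 31 uncalled members. The same windows held TATAAA in 5 of 44 members (11.4%; 15.7% of all genes, 10.9% of tested genes) and AAGATGGC in 2 (4.55%; 3.19% of all genes, 4.10% of tested genes). These are counts of letters, not of bound sites.

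Among other genes of the translation machinery, calls in Dicer knockout oocytes went in both directions. Fau, which encodes the small subunit protein Rps30 as a fusion, differed by 0.46 in Dicer knockout oocytes (adjusted p 0.192) and was called higher against Dgcr8 knockout oocytes, by 0.71 (adjusted p 0.0416). Of 20 translation factors and other genes whose mRNAs carry the pyrimidine motif, 5 were called higher and none lower, with a median of 0.07. They were the elongation factor gene Eef1b2, the poly(A)-binding protein gene Pabpc1 (1.06), the initiation factor gene Eif3k (1.13), the importin gene Ipo7 (0.64) and Tpt1 (0.26), which encodes a growth-related protein. Their share of 25% called higher is to be read against 4.87% of all genes, and their median is well under the 0.42 of the ribosomal protein genes.
Of 73 ribosome assembly factors, 4 were called higher (5.48%) and 5 lower, with a median of -0.03. Over all genes 4.87% were called higher and 6.47% lower, so these counts were near the background. The nucleolar genes Heatr1 (0.46) and Nol10 (0.56) were among the higher, and the GTPase gene Gnl2 (-0.56) and the small subunit assembly gene Ltv1 (-0.28) among the lower. Of 15 genes of RNA polymerase I transcription, which makes the ribosomal RNA, Polr1b alone was called higher (0.48), a share of 6.67%, and none lower. Of 21 genes that control translation of ribosomal protein mRNAs, 2 were called higher (9.52%) and 2 lower. The higher were Rheb (0.27), an activator of the mTOR kinase, and Sesn2 (0.94), an inhibitor of that pathway. Rictor (-0.25) and Larp4 (-0.27) were the lower. With so few genes called, these shares are not read as a result about either list.
The mitochondrial ribosome, whose proteins are also encoded in the nucleus, gave 3 of 77 genes called higher and 2 lower, with a median of 0.09. Mrpl9 rose by 1.49 ± 0.09 (SE; adjusted p 7.66e-06), Mrps28 by 1.17 and Mrpl19 by 0.60, while Mrpl58 fell by 0.54 and Mrps5 fell by 0.47 on the log2 scale. The share called higher was near that of all genes. The Dicer knockout arrays had mitochondrial medians of 0.15, 0.06 and -0.04, in the same order as the cytosolic genes. In Dgcr8 knockout oocytes no gene of these lists was called.

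**Figure D5:**
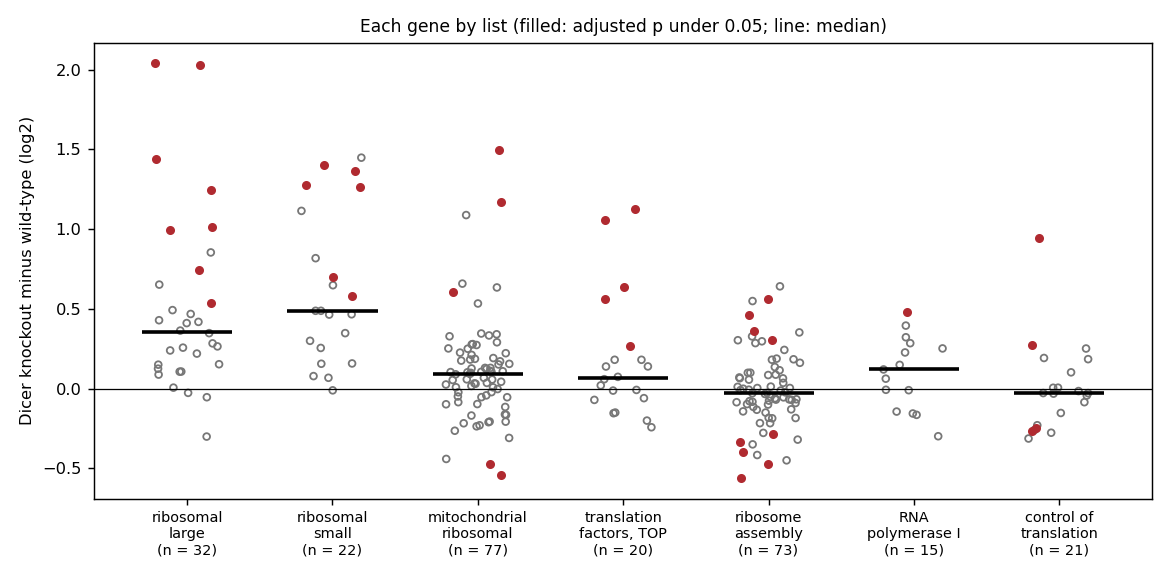
Dicer knockout minus wild-type difference (log2) of each gene of the large and small cytosolic subunits and of 5 related lists; filled points passed an adjusted p of 0.05 and lines mark medians. The cytosolic subunits have medians of 0.36 and 0.49, and the other 5 lists have medians between -0.03 and 0.12.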

How the data were processed

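Per the submitters' processing notes the authors computed array signals with GCRMA, of a version not given in the sources used here. Values were deposited as log2 signals, with array medians of 5.48 to 5.58. Of 35557 probe sets, 21789 name 1 gene, 1621 several and 12147 none here, and the probe set with the highest mean represented each gene. Genes with a log2 signal of at least 4 on at least 3 of 9 arrays (17324) were fitted with limma 3.58.1 in R 4.3.3 (statmod 1.5.0; trend and robust eBayes, all 9 arrays), tested on simulated data first. Calls are at a Benjamini-Hochberg adjusted p under 0.05 over all 17324 genes. With 3 arrays a group, the median 95% interval reached 0.41 to either side for members (0.23 for all genes), and p-values measure only the spread between these arrays. The members and lists were chosen with earlier results of these data known. Members were named if called in any comparison, among the 5 highest or 5 lowest in wild-type signal or the 4 lowest in change, or as stalk proteins, Rpsa or paralogues of Rpl22 and Rps27, and up to 4 genes of other lists by adjusted p. Further names were added after their values were seen (Rpl13, Rpl14, Rpl23a, Rpl28, Rps19, Rps20, further genes of called lists and the genes left out). Same-numbered replicates correlated between -0.24 and 0.11 in their deviations, so the numbers were not taken to pair samples.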

Additional observations from a re-analysis of the deposited data

How the results depend on the processing

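The call counts, the medians, the subunit gaps and the genes named by rule among the members were recomputed under 19 alternatives, 9 of which left out 1 array. The array order, promoter counts, related lists and other named genes were not. The median change of the ribosomal protein genes kept its sign in all of them, with leave-one-out ranges of 0.25 to 0.61 (Dicer knockout against wild-type), -0.24 to -0.035 (Dgcr8 knockout against wild-type) and 0.40 to 0.72 (Dicer knockout against Dgcr8 knockout). The 14 genes called against wild-type ranged from 8 (without Dicer knockout replicate 1) to 21 (without Dicer knockout replicate 3) with 1 array left out, and from 10 (only the 2 groups compared in the fit) to 20 (minimum signal of 6) otherwise. The 25 genes called against Dgcr8 knockout ranged from 13 to 29 with 1 array left out, and otherwise from 16 (median centring) to 30 (minimum signal of 6). The large minus small subunit gap in Dgcr8 knockout oocytes, 0.10, ranged from -0.0025 (without wild-type replicate 1) to 0.11, a reversal whose cause was not tested. In Dicer knockout oocytes that gap stayed between -0.22 and -0.11 with 1 array left out and was -0.21 when probe sets were averaged per gene and -0.25 with the lowest probe set. No ribosomal protein gene was called in Dgcr8 knockout oocytes under any alternative. With the replicate block, although the numbers do not pair the samples, 15, 0 and 24 genes were called in the 3 comparisons, in the order above. The choices of another probe set (highest in wild-type, lowest mean) were added after seeing the data. With 3 arrays a group, differences under about 0.41 could not be resolved for a typical member, even before adjustment over all genes. A call after adjustment needed more, and a difference as large as the 1.45 of Rps13 was not called.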
